A study of Mus musculus with 8 samples.

Results

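The nuclear genes of the mitochondrial oxidative phosphorylation system were examined in the livers of db/db mice and control C57BL/6 mice. Members were taken by name from the deposited table as all genes whose symbol starts with Nduf, Uqcr, Cox4 to Cox8 or Atp5, together with Sdha, Sdhb, Sdhc, Sdhd, Cyc1 and Cycs. Of 22564 listed genes, 94 met this rule, after 1 pseudogene name (Atp5l-ps1) was dropped. They comprised 44 genes assigned to complex I, 4 to complex II, 9 to complex III, 1 to cytochrome c, 20 to complex IV and 16 to complex V. The rule took in 8 complex I assembly factors, since these carry the Nduf prefix or, for Atp5sl, a misleading one. Ndufa4 and Ndufa4l2, named for complex I, were counted with complex IV, where the Ndufa4 protein is now placed. The rule uses names and no expression values, but it was set with earlier results of these data known.

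Liver RNA was sequenced in 8 libraries, 4 from db/db mice and 4 from C57BL/6 mice, and all mice were untreated per the labels. The db/db genotype is a germline defect of the leptin receptor that leads to obesity and diabetes. Neither age nor strain background is stated for these animals in the labels. The study's methods describe db/db mice bought younger, and from a different supplier, than C57BL/6J mice, without saying whether the controls sequenced here are among the latter. Genotype, supplier, age and background strain therefore cannot be told apart. Whether the libraries stem from separate animals is not stated, so the p-values reflect only how the libraries vary, some of which may be technical. The libraries are bulk tissue, in which fewer cells of a type and less RNA per cell cannot be told apart.

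Oxidative phosphorylation takes place in the inner mitochondrial membrane. Complex I (NADH dehydrogenase) and complex II (succinate dehydrogenase) pass electrons to ubiquinone, complex III passes them to cytochrome c, and complex IV hands them to oxygen. Complexes I, III and IV pump protons across the membrane, and complex V (ATP synthase) uses their return to make ATP. Complex II is also an enzyme of the citrate cycle, and the only complex with no mitochondrially encoded subunit. The liver relies on this system to burn the electrons released by fatty acid oxidation and to supply ATP for glucose and urea production.

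Expression is given as FPKM, fragments scaled by transcript length and by library size. A gene was tested if 4 or more of the 8 libraries reached 1 FPKM. Tests were run on log2(FPKM + 1) with limma, and an adjusted p under 0.05 over all 9863 tested genes was taken as a change. In total, 88 of the 94 members were tested. FPKM added up to between 555661 and 602391 in db/db and between 641355 and 676884 in control libraries, so the sums did not overlap. They include the 13 mitochondrially encoded genes, of which 7 were listed at 0 in db/db replicates 1 to 3. These 13 genes held 36556 to 42140 FPKM in db/db and 50861 to 61316 FPKM in control libraries. Their part in the difference between the sums was not tested. Setting each library to the same sum, an alternative used below, removes the difference between the sums. The relative depth ran from 0.82 to 1.09 of control replicate 1, read from the spacing of values under 0.3 FPKM. Hepatocyte markers other than albumin (Alb), which was listed at 0 in all 8 libraries, summed to between 10848 and 12040 FPKM in db/db and between 16073 and 16974 FPKM in control livers, and 2 of the 7 tested (Ttr and Serpina1a) fell while none rose. Of the 4 tested Kupffer cell markers 2 fell, as did 1 of 4 endothelial and 1 of 4 stellate cell markers. Red blood cell markers summed to 283 to 359 FPKM in db/db and 278 to 811 FPKM in control libraries. Muscle markers summed to at most 0.0959 FPKM and adipocyte markers to at most 1.01 FPKM in any library. The part of cell composition in the results below was not tested.

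Promoter sequences are shown first for 6 members that recur in the results: 3 genes of complex II, of which Sdha and Sdhb rose and Sdhd did not, and 3 called genes of complexes I and III whose promoters hold a match. Each run covers 70 bases before to 50 bases after the start site annotated by RefSeq in GRCm38.p6, read along the gene's own strand. Capitals mark matches to 4 motifs searched on both strands: the palindromic NRF1 motif (the capitals in Uqcrc1), CCGGAAG for ETS factors such as Gabpa, AAGATGGC for Yy1 and TCAAGGTCA for the estrogen-related receptors. These factors are textbook regulators of respiratory chain genes. A match on the opposite strand appears as its reverse complement. The runs lie at chr13:74350191-74350310 (minus strand, Sdha), chr4:140961201-140961320 (plus, Sdhb), chr9:50603800-50603919 (minus, Sdhd), chr9:108936578-108936697 (plus, Uqcrc1), chr4:116075021-116075140 (minus, Uqcrh) and chr10:80249379-80249498 (plus, Ndufs7).
Sdha: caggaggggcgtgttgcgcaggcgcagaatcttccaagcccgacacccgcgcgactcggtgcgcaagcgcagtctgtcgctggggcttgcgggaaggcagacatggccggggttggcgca
Sdhb: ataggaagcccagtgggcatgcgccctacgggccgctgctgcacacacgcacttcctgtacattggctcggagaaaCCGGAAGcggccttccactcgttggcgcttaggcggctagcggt
Sdhd: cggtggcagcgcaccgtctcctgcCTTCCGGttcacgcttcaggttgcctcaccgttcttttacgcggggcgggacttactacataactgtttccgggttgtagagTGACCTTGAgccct
Uqcrc1: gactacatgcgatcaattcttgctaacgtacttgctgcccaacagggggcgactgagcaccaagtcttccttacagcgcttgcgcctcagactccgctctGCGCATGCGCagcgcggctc
Uqcrh: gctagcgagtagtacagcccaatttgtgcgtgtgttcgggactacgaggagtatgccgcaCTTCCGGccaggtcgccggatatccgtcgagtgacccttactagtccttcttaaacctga
Ndufs7: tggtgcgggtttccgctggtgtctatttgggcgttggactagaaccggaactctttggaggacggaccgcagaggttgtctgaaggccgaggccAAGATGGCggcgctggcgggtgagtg
In these runs Sdha held none of the motifs, Sdhb held 1 ETS match and Sdhd held an ETS and an estrogen-related receptor match. Over the window of 250 bases before to 50 after the start site, 74 of the 94 members had a sequence by symbol. The NRF1 motif was found in 9.46% of these, against 2.59% of the 7466 tested genes and 1.07% of all 27025 genes with a window. The Yy1 motif was found in 12.2% of members and 5.89% of tested genes, the ETS motif in 23.0% and 21.6%, and the estrogen-related receptor motif in 2.70% and 0.348%. Among the 7 members with a window that rose, 2 held the NRF1 motif, and among the 7 that fell, 1 did. The ETS motif was held by 2 that rose and 1 that fell, and the Yy1 motif by 1 and 1. The estrogen-related receptor motif was held by none of them. A match describes the letters only and is not evidence of binding.

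As many members rose as fell. In db/db livers 10 of the 88 tested members rose and 10 fell, which is 11.4% in each direction. Over all 9863 tested genes, 16.0% rose and 11.6% fell, so the share of members that fell is near that of all genes. The median log2 fold change was -0.12 over members and 0.04 over all tested genes, with single members ranging from -1.06 to 0.74. The 4 db/db libraries lay wholly above the 4 control libraries for 11 members and wholly below for 11, while 17.3% of all tested genes lay above and 12.1% below. The split depended on the scaling of the libraries. It was 5 up and 11 down with median-ratio scaling, 18 up and 6 down with each library set to the same sum of FPKM, and 13 up and 7 down after correction for transcript length. The equal-sum scaling moved the median of all genes to 0.18 and turned the split over all genes to 2486 up and 766 down, from 1582 and 1147, and the members' median was then 0.14 below that of all genes. Single libraries also moved the counts: only 4 members rose without db/db replicate 4 or without control replicate 2, 5 without control replicate 4 and 6 without db/db replicate 2, while 5 fell without control replicate 3 and 6 without control replicate 1. Leaving out 1 library also lowered the counts over all genes, to between 1247 and 1461 up and between 878 and 1081 down. The 68 members with no call ranged from -0.36 to 0.31 on the log2 scale.

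**Figure D1:**
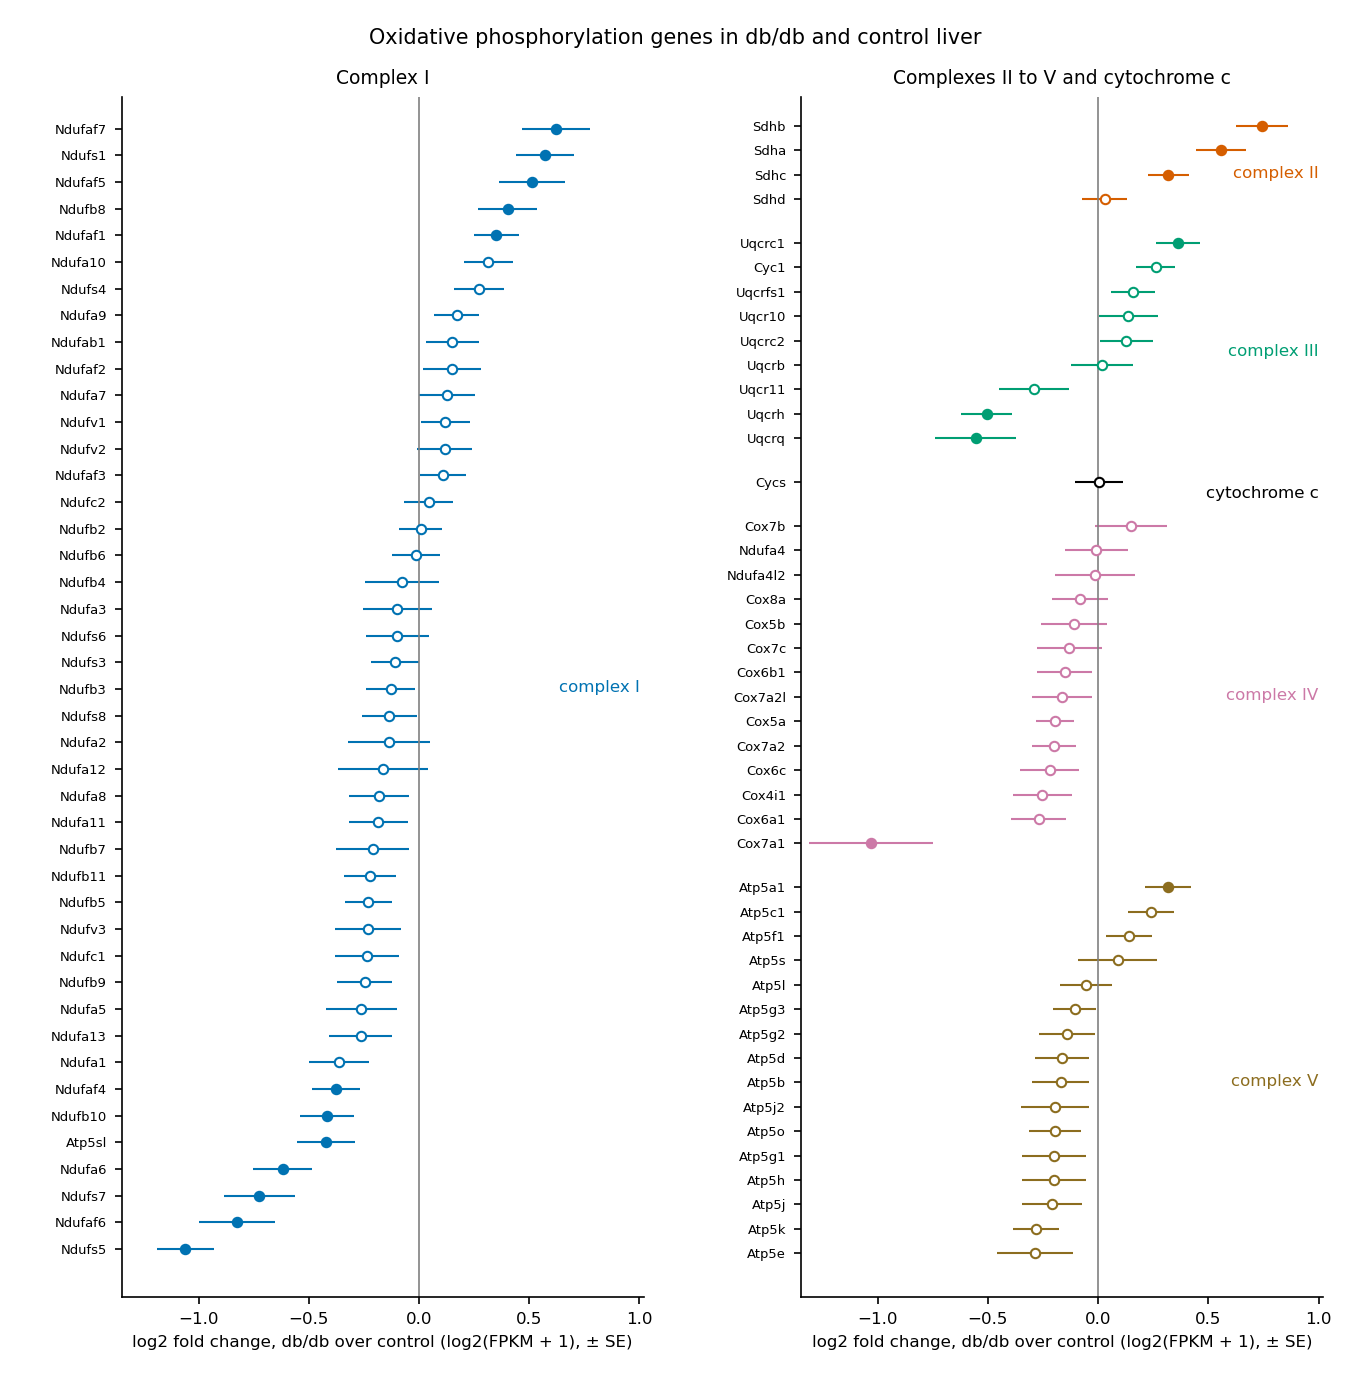
Log2 fold change of all but 1 of the 88 tested members, db/db over control on log2(FPKM + 1), with its standard error from limma (n = 4 libraries per group). Filled points have an adjusted p under 0.05. Before length correction complex II sits to the right of 0, most of complexes IV and V to the left, and complexes I and III hold calls on both sides.

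Complex II had the highest median of the 5 complexes. In it, 3 of the 4 genes rose (75%) and none fell, beside 16.0% and 11.6% over all tested genes. The median log2 fold change was 0.44. That median lay between 0.37 and 0.60 in all 19 alternative settings. Summed over the 4 genes, expression was 850, 820, 851 and 982 FPKM in db/db and 674, 595, 598 and 638 FPKM in control libraries. These sums did not overlap between the groups, whereas those of complexes I, III, IV and V did.

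Sdhb encodes the iron-sulfur subunit that carries electrons from the active site toward ubiquinone (GRCm38, chromosome 4, 140961203 to 140979193). Its values were 334, 359, 388 and 422 FPKM in db/db and 266, 211, 208 and 212 FPKM in control libraries. Every db/db library was above every control library, and control replicate 1 stood above the other controls. The means were 376 ± 37.9 and 224 ± 27.9 FPKM (SD, n = 4), a log2 fold change of 0.74 (SE 0.12, limma adjusted p = 0.00110). Sdha encodes the flavoprotein that oxidises succinate (chromosome 13, 74322254 to 74350280). It measured 233, 185, 186 and 232 FPKM in db/db and 144, 127, 141 and 151 FPKM in control libraries. The groups again did not overlap, and the log2 fold change was 0.56 (SE 0.12, limma adjusted p = 0.00500). Both kept their call in all 19 alternative settings, with adjusted p between 0.000130 and 0.00478 for Sdhb and between 0.00128 and 0.0175 for Sdha.

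The membrane anchors Sdhc and Sdhd bind ubiquinone and heme. Sdhc (chromosome 1, 171127165 to 171150603) measured 123, 124, 134 and 147 FPKM in db/db and 106, 104, 105 and 106 FPKM in control libraries, with no overlap. Its log2 fold change was 0.32 (SE 0.09, limma adjusted p = 0.0276). The call of Sdhc was lost with median-ratio scaling and without any 1 of 5 libraries (db/db replicates 3 and 4, control replicates 1, 2 and 4), with adjusted p between 0.00221 and 0.0795 over the alternatives. Sdhd (chromosome 9, 50596357 to 50603812) measured 160, 151, 143 and 180 FPKM in db/db and 158, 152, 143 and 167 FPKM in control libraries. These values overlapped throughout, with a log2 fold change of 0.03 (SE 0.10, limma adjusted p = 0.860). The assembly factors of the complex that were listed, Sdhaf1 and Sdhaf2, had log2 fold changes of -0.34 (adjusted p = 0.0685) and -0.03 (adjusted p = 0.898), so neither passed the limma test. After length correction Sdhaf1 was called lower (-0.42, adjusted p = 0.0311).

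**Figure D2:**
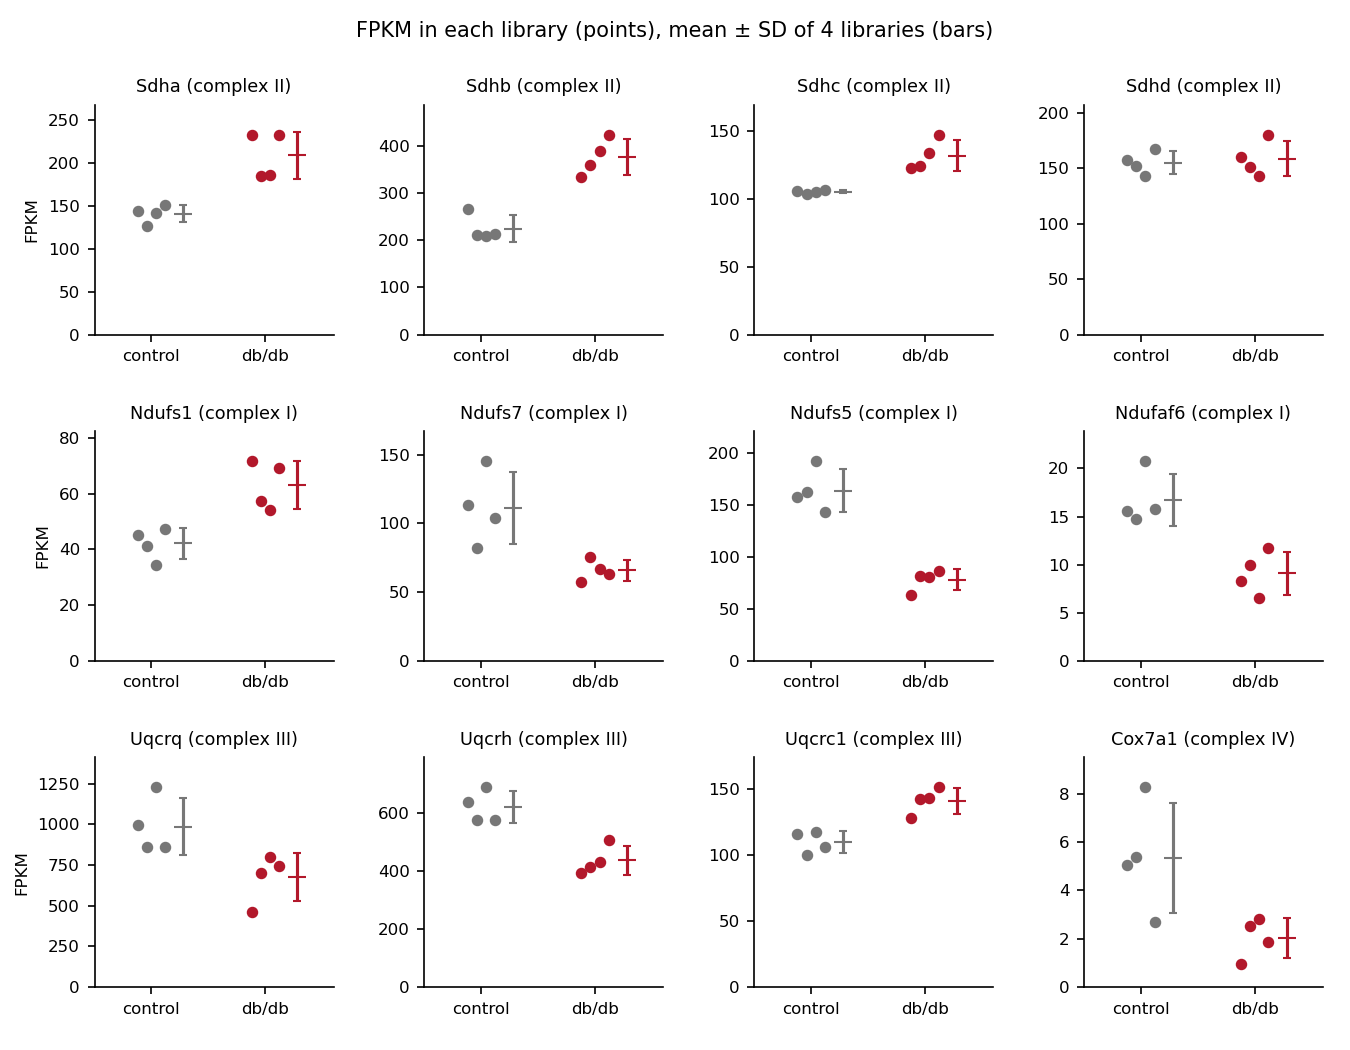
FPKM of 12 members in each library (points, in order of replicate) with the mean ± SD of the 4 libraries beside them. All axes start at 0. Sdha, Sdhb and Sdhc separate the groups upward, Sdhd does not, and Ndufs5, Ndufs7, Ndufaf6, Uqcrq and Uqcrh separate them downward.

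Complex I held calls in both directions, also among its catalytic subunits. Of its 44 genes, all tested, 5 rose (11.4%) and 7 fell (15.9%), and the median log2 fold change was -0.12. Over all tested genes 16.0% rose and 11.6% fell, so calls in both directions are not particular to this complex. Among the 7 core subunits, which hold the flavin and the iron-sulfur clusters, 1 rose and 1 fell (14.3% each), and 5 had no call. Ndufs1, the largest subunit, which carries iron-sulfur clusters in the arm facing the matrix, lies on chromosome 1 (63143596 to 63176833). It measured 71.6, 57.4, 54.0 and 69.1 FPKM in db/db and 45.2, 41.2, 34.5 and 47.4 FPKM in control libraries. All db/db libraries were above all controls, and the log2 fold change was 0.57 (SE 0.13, limma adjusted p = 0.00923). Ndufs7, which holds the last cluster before ubiquinone, lies on chromosome 10 (80249121 to 80256794) and went the other way. It measured 57.6, 75.5, 66.9 and 63.0 FPKM in db/db and 113, 82.1, 145 and 104 FPKM in control libraries. All db/db libraries were below all controls, and the log2 fold change was -0.72 (SE 0.16, limma adjusted p = 0.00775). Both calls held in all 19 alternatives, with adjusted p up to 0.0318 for Ndufs1 and 0.0234 for Ndufs7.

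Ndufv1, the subunit that takes electrons from NADH, had means of 95.7 ± 8.31 and 88.2 ± 9.34 FPKM (SD, n = 4, log2 fold change 0.12, limma adjusted p = 0.456). Its partner Ndufv2 had means of 194 ± 31.2 and 177 ± 8.51 FPKM (log2 fold change 0.12, limma adjusted p = 0.522). Ndufs3 and Ndufs8 had log2 fold changes of -0.11 (limma adjusted p = 0.480) and -0.14 (limma adjusted p = 0.449). For Ndufs3, only 50.7% of the 31-base words of its transcripts are unique to it, so reads could be shared with copies.

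Of the 29 accessory subunits of complex I, 1 rose (3.45%) and 3 fell (10.3%), beside 16.0% and 11.6% over all tested genes. Ndufs5, an accessory subunit on the side of the intermembrane space, fell. The gene lies on chromosome 4 (123712710 to 123718202). It measured 63.2, 81.9, 81.1 and 86.9 FPKM in db/db and 158, 163, 192 and 143 FPKM in control libraries. The highest db/db library was far below the lowest control. The log2 fold change was -1.06 (SE 0.13, limma adjusted p = 0.000217), and the call held in each of the 18 alternatives that tested it, with adjusted p up to 0.00125. Only 72.6% of its words are unique, and it was left out where uniqueness of at least 80% was asked. Ndufa6, a small accessory subunit of the arm facing the matrix (chromosome 15, 82350140 to 82354322), measured 199, 263, 288 and 278 FPKM in db/db and 451, 389, 362 and 368 FPKM in control libraries. No values overlapped between the groups, and the log2 fold change was -0.62 (SE 0.14, limma adjusted p = 0.00671). Its transcript has 382 bases, and after length correction the change was -0.28 (adjusted p = 0.0724, range over the alternatives 0.00330 to 0.122). Ndufb10, a subunit of the membrane arm, fell by 0.42 on the log2 scale (limma adjusted p = 0.0272, range over the alternatives 0.0183 to 0.0846), and lost its call with equal-sum scaling, in 4 fits that left out 1 library (db/db replicate 1 or 3, control replicate 1 or 3) and with length correction without db/db replicate 1.

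Ndufb8, another subunit of the membrane arm (chromosome 19, 44548572 to 44555440), rose. It measured 201, 255, 265 and 295 FPKM in db/db and 202, 171, 215 and 176 FPKM in control libraries. db/db replicate 1 lay within the range of the controls. The log2 fold change was 0.40 (SE 0.13, limma adjusted p = 0.0468), and the call was lost in 9 of 19 alternatives, among them median-ratio scaling and leaving out any 1 of db/db replicates 2, 3 and 4 or control replicates 1, 2 and 4 (range of adjusted p 0.00366 to 0.124). The 2 complex I members with the highest mean FPKM had no call. Ndufa3 measured 327, 447, 496 and 369 FPKM in db/db and 471, 391, 513 and 373 FPKM in control libraries (log2 fold change -0.10, limma adjusted p = 0.674). Ndufb9 measured 309, 377, 370 and 414 FPKM in db/db and 458, 387, 499 and 401 FPKM in control libraries (log2 fold change -0.25, limma adjusted p = 0.167). Values of both genes overlapped between the groups.

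The 8 assembly factors, which build complex I without staying in it, included weakly expressed genes, down to a mean of 4.38 FPKM for Ndufaf5. Of the 8, 3 rose and 3 fell (37.5% each), beside 16.0% and 11.6% over all tested genes. Only the calls of Ndufaf7 and Ndufaf6 held in every alternative. Ndufaf7, a methyltransferase that acts in complex I assembly (known from human cells), measured 8.51, 7.98, 7.11 and 11.0 FPKM in db/db and 5.44, 4.49, 4.60 and 6.51 FPKM in control libraries. Both groups were apart, and the log2 fold change was 0.62 (SE 0.15, limma adjusted p = 0.0123), with the call held in all 19 alternatives (adjusted p 0.00439 to 0.0354). Ndufaf5, known in human cells to hydroxylate Ndufs7, measured 5.11, 6.14, 4.55 and 5.39 FPKM in db/db and 4.55, 2.80, 3.69 and 2.79 FPKM in control libraries. The lowest db/db library lay only just above the highest control. Its log2 fold change was 0.51 (SE 0.15, limma adjusted p = 0.0282). Ndufaf1, which acts in the assembly of the membrane arm, measured 33.8, 31.7, 34.2 and 33.8 FPKM in db/db and 29.8, 26.3, 23.0 and 25.2 FPKM in control libraries. The groups did not overlap, and the log2 fold change was 0.35 (SE 0.10, limma adjusted p = 0.0274). Ndufaf5 lost its call without filter, with quantile normalization and without any 1 of 4 libraries (db/db replicates 2 and 4, control replicates 2 and 4). Ndufaf1 lost it with median-ratio scaling, quantile normalization, length correction without db/db replicate 1, and without any 1 of 5 libraries (db/db replicates 3 and 4, control replicates 2, 3 and 4). Adjusted p reached 0.0798 and 0.0661.

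Ndufaf6, an early assembly factor (chromosome 4, 11051045 to 11076205), measured 8.29, 9.92, 6.50 and 11.7 FPKM in db/db and 15.6, 14.7, 20.8 and 15.8 FPKM in control libraries. All db/db libraries were below all controls. The log2 fold change was -0.83 (SE 0.17, limma adjusted p = 0.00508), and the call held in all 19 alternatives (adjusted p 0.00313 to 0.0161). Ndufaf4 fell by 0.38 on the log2 scale with groups that did not overlap (limma adjusted p = 0.0257), losing its call in 5 alternatives, namely equal-sum scaling and leaving out db/db replicate 2 or control replicate 1, 2 or 3 (adjusted p up to 0.136). Atp5sl, now known as the complex I assembly factor Dmac2, fell by 0.42 (limma adjusted p = 0.0363) with overlapping groups. It lost its call in 8 alternatives, which were no filter, equal-sum scaling and leaving out db/db replicate 1, 2 or 3 or control replicate 1, 2 or 3 (adjusted p up to 0.149). Ndufaf2 and Ndufaf3 had log2 fold changes of 0.15 and 0.11 with no call.

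Complex III held calls in both directions before length correction, but not after it. Of its 9 genes 1 rose (11.1%) and 2 fell (22.2%), beside 16.0% and 11.6% over all tested genes. The median log2 fold change was 0.13. After length correction 3 rose and none fell, while 14.8% of all genes in that fit rose and 13.4% fell. Uqcrc1, a large core protein of the matrix side (chromosome 9, 108936633 to 108949623), measured 128, 142, 143 and 151 FPKM in db/db and 116, 99.6, 117 and 106 FPKM in control libraries. There was no overlap, and the log2 fold change was 0.36 (SE 0.10, limma adjusted p = 0.0202). It lost its call with median-ratio scaling and without db/db replicate 2 or 4 or control replicate 2, with adjusted p between 0.00121 and 0.0579. Cyc1, the cytochrome c1 that hands electrons to cytochrome c, measured 148, 156, 155 and 166 FPKM in db/db and 133, 121, 135 and 131 FPKM in control libraries. These did not overlap either, but the log2 fold change of 0.26 (SE 0.09) just missed the threshold (limma adjusted p = 0.0514). Uqcrfs1, the Rieske iron-sulfur protein, had means of 162 ± 13.2 and 145 ± 9.50 FPKM (SD, n = 4, log2 fold change 0.16, limma adjusted p = 0.266).

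The 2 members that fell are small accessory proteins. Uqcrh, the hinge protein next to cytochrome c1 (chromosome 4, 116066965 to 116075071), measured 395, 414, 430 and 508 FPKM in db/db and 638, 576, 689 and 576 FPKM in control libraries. The groups did not overlap, and the log2 fold change was -0.51 (SE 0.11, limma adjusted p = 0.00795). Uqcrq, the complex III member with the highest mean FPKM (chromosome 11, 53427922 to 53430831), measured 463, 700, 799 and 747 FPKM in db/db and 995, 863, 1229 and 858 FPKM in control libraries. The groups did not overlap, although db/db replicate 1 was far below the other db/db libraries. The log2 fold change was -0.56 (SE 0.18, limma adjusted p = 0.0455). After length correction neither kept its call, with -0.23 for Uqcrh (adjusted p = 0.0889, range over the alternatives 0.00517 to 0.0889) and -0.30 for Uqcrq (adjusted p = 0.0787, range 0.0252 to 0.145). Uqcrq also lost its call without filter, with equal-sum scaling, with array weights, and when any 1 library other than db/db replicate 3 was left out. Uqcrb, next in expression, measured 415, 587, 608 and 573 FPKM in db/db and 615, 531, 511 and 485 FPKM in control libraries and overlapped between the groups (log2 fold change 0.02, limma adjusted p = 0.945). Cycs, the soluble carrier cytochrome c, measured 93.8, 124, 107 and 112 FPKM in db/db and 119, 107, 100 and 109 FPKM in control libraries, with a log2 fold change of 0.00 (SE 0.11, limma adjusted p = 0.990).

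Complex IV had 1 called gene. Of its 20 genes, 14 were tested. None of these rose and 1 fell (7.14%), beside 16.0% and 11.6% over all tested genes. The median log2 fold change was -0.16. The 11 accessory subunits of the common liver form ranged from -0.27 to 0.15 with no call. Ndufa4 had the highest mean FPKM of the complex and measured 733, 898, 1080 and 1095 FPKM in db/db and 1051, 884, 971 and 882 FPKM in control libraries. These overlapped, with a log2 fold change of -0.01 (SE 0.14, limma adjusted p = 0.971). Cox6b1 measured 653, 804, 853 and 784 FPKM in db/db and 915, 798, 967 and 761 FPKM in control libraries (log2 fold change -0.15, limma adjusted p = 0.392). Cox4i1, the first subunit of the nuclear set to join in assembly, had means of 519 ± 68.3 and 618 ± 80.2 FPKM (SD, n = 4, log2 fold change -0.25, limma adjusted p = 0.184). Cox6a1 and Cox8a had log2 fold changes of -0.27 (limma adjusted p = 0.131) and -0.08 (limma adjusted p = 0.668).

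Forms of complex IV subunits that are typical of muscle, lung or testis had low or 0 values in the table. Cox7a1, the heart and muscle form of Cox7a, was the member that fell. It measured 0.960, 2.51, 2.81 and 1.86 FPKM in db/db and 5.03, 5.39, 8.26 and 2.67 FPKM in control libraries. Control replicate 4 lay within the range of db/db libraries. The log2 fold change on the log2(FPKM + 1) scale was -1.03 (SE 0.28, limma adjusted p = 0.0198), and the call was lost without filter, without control replicate 3 and with length correction without db/db replicate 1 (range of adjusted p 0.00516 to 0.0792). The muscle markers Acta1, Ckm, Myh4 and Myh7 summed to at most 0.00966 FPKM in db/db and 0.0959 FPKM in control libraries. Ndufa4l2, the form of Ndufa4 that responds to low oxygen, had means of 1.23 ± 0.230 and 1.30 ± 0.609 FPKM. The 6 members below the filter all belong to this class. Cox7b2 and Cox8c were listed at 0 in all 8 libraries, Cox8b was above 0 only in db/db replicate 3 (0.567 FPKM), Cox6a2 reached at most 0.340 FPKM, Cox4i2 0.412 FPKM and Cox6b2 2.12 FPKM. Since albumin is also listed at 0 throughout, a 0 in this table can be a failed estimate and does not show absence.

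The mix of alternative forms could be described but hardly tested. Shares of summed FPKM within a library were compared for the 3 sets with at least 2 tested genes, 7 shares in all, by a two-sided exact permutation test whose smallest possible p is 0.0286. After adjustment 1 share at that p gives 0.2, and 5 of the 7 would have to reach it together for any to pass, so the lack of a call says nothing about whether the shares differed. Cox7a2 held 68.6 ± 0.936% of the Cox7a family in db/db and 68.4 ± 3.17% in control livers (SD, n = 4, exact permutation p = 0.943). Cox7a2l, listed here as a factor for supercomplexes, held 30.7 ± 1.14% and 30.0 ± 3.57% (exact permutation p = 0.714). Cox7a1 held 0.671 ± 0.274% and 1.54 ± 0.667% (exact permutation p = 0.0857, adjusted p = 0.600). The 3 genes for the identical c ring subunit of complex V, Atp5g1, Atp5g2 and Atp5g3, held 24.9%, 15.5% and 59.6% in db/db and 26.0%, 15.5% and 58.4% in control livers, with exact permutation p from 0.400 to 1. Ndufa4l2 held 0.131% and 0.138% of its sum with Ndufa4 (exact permutation test, adjusted p = 1). Only 12.3% of the words of Atp5g2 are unique, so its share is uncertain.

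Complex V also had 1 called gene. All 16 genes were tested. Of these 1 rose (6.25%) and none fell, beside 16.0% and 11.6% over all tested genes. The median log2 fold change was -0.17. Atp5a1, the alpha subunit of the catalytic head, measured 490, 424, 414 and 519 FPKM in db/db and 365, 357, 378 and 374 FPKM in control libraries. All db/db libraries were above all controls. The log2 fold change was 0.32 (SE 0.10, limma adjusted p = 0.0437), and the call was lost in 11 of 19 alternatives, among them median-ratio scaling, both length corrections and leaving out any 1 library other than db/db replicate 3 (range 0.00640 to 0.118). Atp5b, the beta subunit that carries the catalytic sites and the member with the highest mean FPKM of all, measured 904, 1171, 1239 and 1161 FPKM in db/db and 1429, 1196, 1271 and 1127 FPKM in control libraries. These overlapped, with a log2 fold change of -0.17 (SE 0.13, limma adjusted p = 0.363). Alpha and beta subunits, which alternate in the head, thus had fold changes of opposite sign, although the difference between them was not tested. Atp5c1, the central stalk, measured 304, 304, 321 and 344 FPKM in db/db and 300, 265, 236 and 278 FPKM in control libraries. The groups barely separated (log2 fold change 0.24, limma adjusted p = 0.112). Atp5j, a subunit of the peripheral stalk, measured 374, 506, 517 and 512 FPKM in db/db and 614, 595, 509 and 480 FPKM in control libraries (log2 fold change -0.21, limma adjusted p = 0.286).

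Transcript length ran alongside these differences. Most subunits are small proteins, and the median transcript of the 88 tested members had 838 bases, against 2524 over all tested genes with a known length. Of the 40 tested members under 750 bases none rose and 6 fell, with a median log2 fold change of -0.20. Over all 404 tested genes of that length, 7.43% rose and 27.7% fell, and the median was also -0.20. Of the 19 members with 1500 to under 3000 bases, 6 rose and 1 fell, with a median of 0.15, against 18.3% up, 11.0% down and a median of 0.05 over the 3846 genes of that length. Across the 88 members the rank correlation of log2 fold change and transcript length was 0.51 as a description, and members share libraries. It was 0.49 when db/db replicate 1 was left out, and 0.15 over the 9702 tested genes with a length. db/db replicate 1 was the lowest of the 8 libraries for 38 of the 40 short members and for 55.2% of all tested genes under 750 bases. With 1500 bases and over, it was the lowest for 6 of 21 members (28.6%) and for 10.6% of all tested genes.

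**Figure D3:**
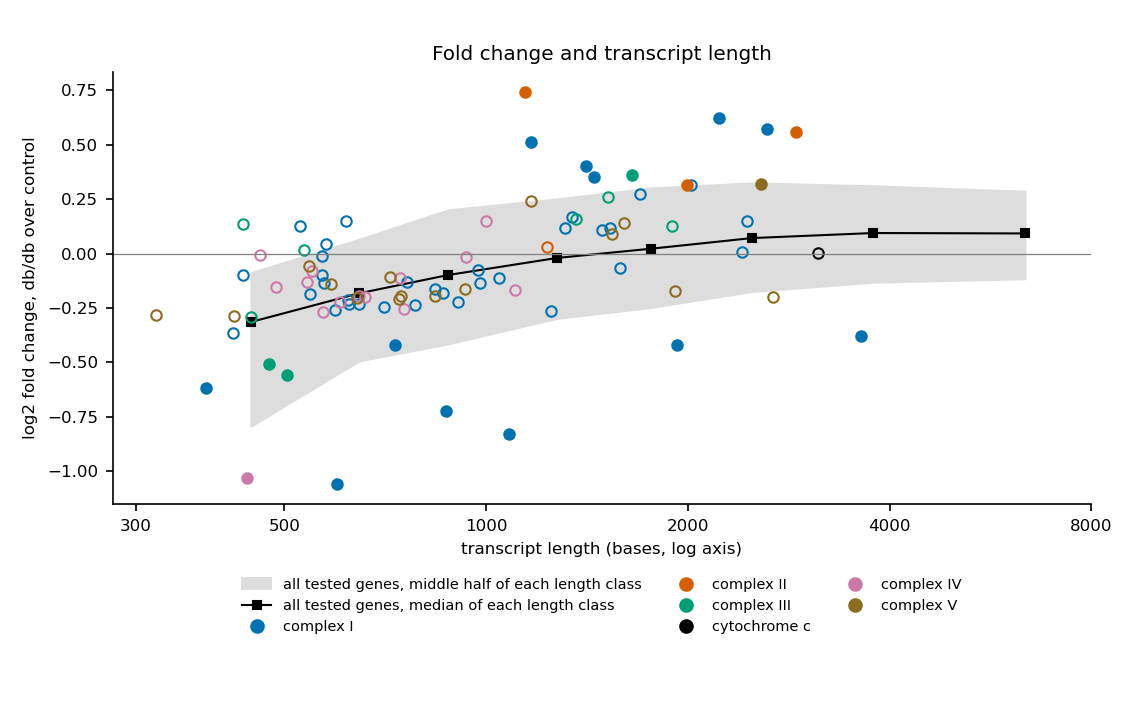
Log2 fold change (db/db over control) against transcript length on a log axis for the 88 tested members, coloured by complex and filled where the adjusted p is under 0.05. Squares and the grey band give the median and the middle of the distribution (25th to 75th percentile) of all tested genes in 8 length classes. Medians of all genes run from -0.31 under 500 bases to 0.09 over 5000 bases, and most short members lie near that line.

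When each library was corrected for its trend with transcript length over all genes, the members' median moved from -0.12 to 0.05. Of the 88 members 13 rose and 7 fell, while 14.8% of the 9702 genes in that fit rose and 13.4% fell. The medians were then 0.00 for complex I, 0.37 for complex II, 0.17 for complex III, 0.02 for complex IV and 0.04 for complex V. Besides complex II, complex III then had all db/db library medians above all controls (0.09 to 0.26 against -0.06 to 0.02). Of the 20 calls, 16 stayed, 9 of the 10 rises and 7 of the 10 falls. Ndufa6, Uqcrh, Uqcrq and Atp5a1 lost their call. Cyc1 (0.25, adjusted p = 0.0288), Ndufa7 (0.37, adjusted p = 0.0102), Uqcr10 (0.44, adjusted p = 0.00155) and Ndufa4 (0.28, adjusted p = 0.0477) were called higher, and for Ndufa4 the sign differed from the -0.01 without correction. The 3 genes of complex II kept their call. Fragment sizes were not used here, and the source of the length trend was not tested.

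**Figure D4:**
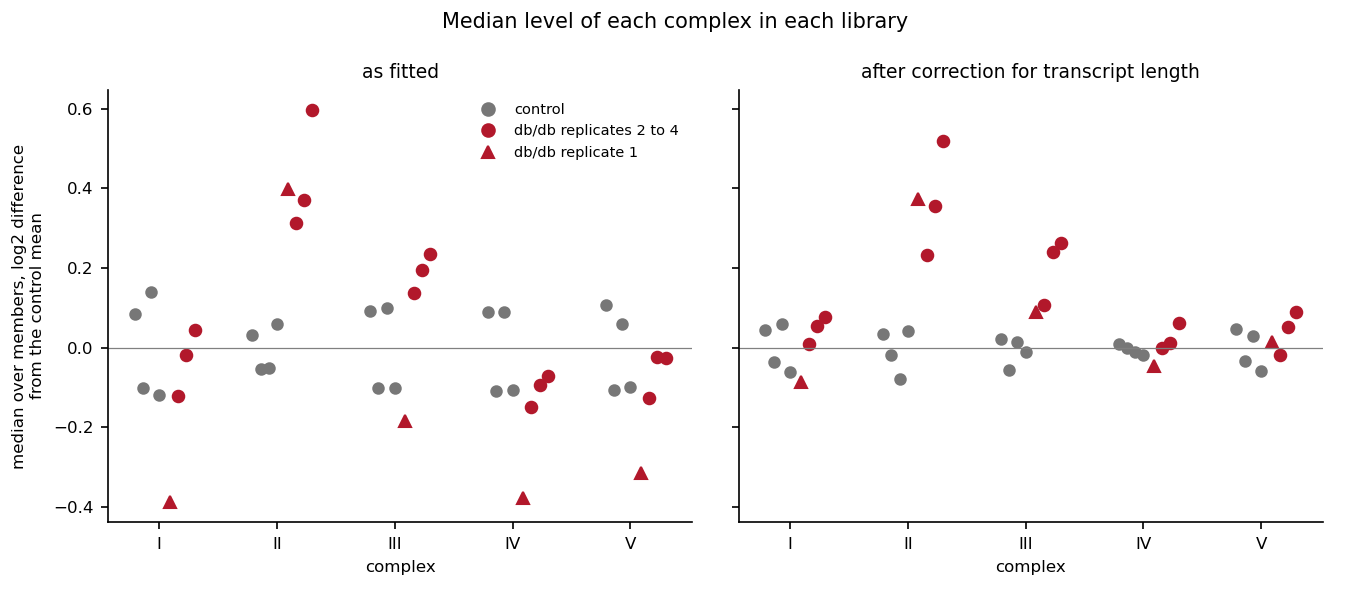
Median over the tested members of each complex in each library, as log2 difference from the control mean, before (left) and after (right) correction for transcript length. Grey points are the 4 control libraries and red symbols the 4 db/db libraries, with db/db replicate 1 as a triangle. Before correction that library is lowest for complexes I, III, IV and V. All db/db libraries lie above all controls for complex II in both panels and for complex III after correction only.

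Other limits came from the way genes were defined. For 64 of the 94 members the deposited locus matched the bounds of the gene in GENCODE M21 within 500 bases, and 23 shared one merged locus with other genes. Of the called members this held for Ndufs7, Ndufb8, Ndufs1 and Uqcrh, whose loci hold 45, 2, 1 and 15 other listed genes. Ndufs7 shares its locus with Atp5d, which had a log2 fold change of -0.16 with no call (limma adjusted p = 0.351). In 16 tested members under 80% of the 31-base words are unique. Ndufs5 was the only called member among them. For the others, such as Ndufb9 (74.5%) and Cox6a1 (76.2%), the lack of a call does not show that they were unchanged. With these 16 members and all other genes under 80% left out, 10 of 72 members rose and 9 fell. Of the 8708 genes in that fit, 1421 rose and 879 fell.

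The 13 mitochondrially encoded subunits, partners of the members in complexes I, III, IV and V, could be compared only in part. As deposited, 7 of them were at 0 in db/db replicates 1 to 3, and mt-Co1, a catalytic subunit of complex IV, was at 0 in all 4 db/db libraries and between 10029 and 12810 FPKM in controls. Nuclear partners such as Cox4i1 and Cox5a were not at 0 in any library, and an exact 0 can be a failed estimate. Only 0.13% of the words of mt-Co3, 0.46% of mt-Atp6, 1.1% of mt-Nd4l and 1.9% of mt-Nd3 are unique. The share was 36.1% for mt-Co1 and 37.2% for mt-Nd4, but 92.5% for mt-Atp8. Except for mt-Atp8, reads could thus be shared with copies, and the part of this in the 0 values was not tested. For the genes at 0 in any library no fold change is given. Of the 6 genes above 0 in all libraries, mt-Nd5 of complex I was higher in db/db (2427, 1648, 1591 and 1366 FPKM against 552, 724, 508 and 704 FPKM, log2 fold change 1.48, limma adjusted p = 0.000270). mt-Cytb, the cytochrome b of complex III, was lower before length correction (10470, 9380, 10918 and 8567 FPKM against 13697, 15168, 12191 and 12169 FPKM, log2 fold change -0.44, limma adjusted p = 0.0406), and after it mt-Cytb had no call (-0.39, adjusted p = 0.0507). mt-Nd1 of complex I, with all db/db libraries above all controls, had no call before length correction (log2 fold change 0.35, limma adjusted p = 0.103) and was called higher after it (0.44, adjusted p = 0.0198). mt-Nd2, mt-Co2 and mt-Nd6 had no call in either fit. For mt-Co2 0% of the words are unique, so its level is uncertain and its lack of a call does not show that it was unchanged. In the other genes above 0 in all libraries the share ran from 83.2% (mt-Nd5) to 100% (mt-Nd1).

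Genes that feed electrons into the chain were described from whole lists, beside the 16.0% of all tested genes that rose and the 11.6% that fell. Of 15 genes of electron entry and ubiquinone synthesis, 8 rose and 1 fell, with a median log2 fold change of 0.50. Etfdh, which passes electrons from fatty acid oxidation to ubiquinone, measured 166, 159, 147 and 187 FPKM in db/db and 82.4, 91.2, 62.4 and 85.5 FPKM in control libraries (log2 fold change 1.04, SE 0.13, limma adjusted p = 0.000295). All db/db libraries were above all controls. Sqrdl and Gpd2, which also reduce ubiquinone, rose by 1.08 and 0.89, and the ubiquinone synthesis gene Coq5 by 0.80, while Coq7 fell by 0.46 (limma adjusted p = 0.00418, 0.00346, 0.000932 and 0.0184). Of 13 citrate cycle genes outside complex II, 5 rose and 1 fell, with a median of 0.28. Suclg2, a subunit of the enzyme that makes the succinate used by complex II, measured 165, 196, 199 and 180 FPKM in db/db and 86.1, 96.9, 80.3 and 85.5 FPKM in control libraries (log2 fold change 1.08, SE 0.10, limma adjusted p = 3.96e-05). The groups were far apart, and under 80% of the words of Suclg2 are unique. Dlst, Dld and Suclg1 also rose, and Idh3a fell by 0.40 (limma adjusted p = 0.0190).

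Among 33 listed assembly factors outside the name rule, 7 rose and 1 fell, with a median of 0.11. Sco2, a copper chaperone of complex IV, measured 54.9, 64.9, 82.7 and 66.5 FPKM in db/db and 33.0, 27.0, 25.8 and 26.3 FPKM in control libraries (log2 fold change 1.22, SE 0.14, limma adjusted p = 0.000116). These did not overlap, but only 33.8% of the 31-base words of Sco2 are unique to it, so its level is uncertain. Acad9, which works with Ndufaf1 in building complex I, rose by 1.06, and Nubpl, which brings iron-sulfur clusters to complex I, by 1.12 (limma adjusted p = 0.000929 and 0.000953), while Ecsit, of the same assembly complex as Acad9, fell by 0.35 (limma adjusted p = 0.0455). Lyrm7, Uqcc1, Coa6 and Cox16 also rose, with 24.3% unique words for Cox16. Of 17 markers of mitochondrial membranes and protein import, 2 rose (Immt and Opa1, which shape the cristae) and 1 fell (Tomm22), with a median of 0.02. Of 11 tested regulators, 1 rose and 1 fell, with a median of -0.19. After length correction 1 rose and 2 fell. The estrogen-related receptor gene Esrra had all db/db libraries below all controls but no call (log2 fold change -0.34, limma adjusted p = 0.0571). It was called lower after length correction (-0.41, limma adjusted p = 0.0251). Ppargc1a, a coactivator of respiratory genes, measured 2.25, 2.51, 1.41 and 1.80 FPKM in db/db and 0.677, 0.632, 0.000294 and 0.524 FPKM in control libraries, low values without overlap (log2 fold change 1.05 on the log2(FPKM + 1) scale, limma adjusted p = 0.00238). Polrmt, the mitochondrial RNA polymerase, fell by 0.60 (limma adjusted p = 0.0380), and it lies in the merged locus of Ndufs7. Nnt, a proton-driven transhydrogenase of the inner membrane, measured 25.1, 38.2, 45.4 and 43.3 FPKM in db/db and 13.2, 21.2, 18.5 and 11.5 FPKM in control libraries (log2 fold change 1.19, limma adjusted p = 0.00275). All db/db libraries were above all controls, and only 24.6% of the words of Nnt are unique, so its level is uncertain. C57BL/6J mice are known to carry a deletion within Nnt, and the labels state no substrain for either group.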

How the data were processed

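The authors removed ribosomal RNA from total liver RNA and built stranded libraries. Per the submitters' processing notes, reads were trimmed with cutadapt 1.9.3, aligned to mm10 with HISAT2 2.0.4 and quantified with Cufflinks and Cuffdiff (versions, annotation release and strand setting: not given in the sources used here). In the authors' table the deposited values are FPKM, 1 per gene and library, with no pooling. Count models cannot be applied to FPKM, and absolute depth is unknown. A deposited length column describes the locus and was not used.

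Values were transformed to log2(FPKM + 1) and fitted with limma 3.58.1 in R 4.3.3 (2 groups, empirical Bayes with trend, two-sided, Benjamini-Hochberg over 9863 genes that reached 1 FPKM in 4 or more libraries). This understates fold changes of weakly expressed genes. The scripts were tested on simulated data. Transcript lengths (93.5% of genes) and shared 31-base words came from GENCODE M21, and length correction used a loess curve per library (span 0.5). Promoters were matched by symbol to RefSeq. Alternatives were pseudocount 0.1, other filters, median-ratio, quantile and equal-sum scaling, length correction, array weights, no trend, members with at least 80% unique words, and leaving out each library.

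The members and lists were chosen with earlier results of these data known. Named genes were the 2 with the highest mean FPKM per complex, up to 4 with the smallest adjusted p per direction, catalytic subunits, isoform sets, calls against the majority of a complex, and members below the filter. Ndufb10, Atp5sl, Ndufaf4 and Uqcrc1 (so that every call is named), Ndufaf2, Ndufaf3, Cox5a, Atp5d, Ndufa7 and Uqcr10 were named after their values were seen. The cell type markers not described in the results were those of bile duct and of B and T cells, of which no tested gene passed the test, nor did a red blood cell marker. Results for a few genes are not reported here.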

Additional observations from a re-analysis of the deposited data

Results flagged for a closer look

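Within groups of 4 libraries, 1 value stood apart from the other 3 in 8 of the 176 groups of tested members, and chance alone flags about 1 in 20. db/db replicate 1 was the low value for Ndufb5 (169 FPKM against 199 to 202), Cox7b (331 against 473 to 493) and Atp5j (374 against 506 to 517), none of them called. Control replicate 1 was the high value for Sdhb (266 FPKM against 208 to 212), Ndufb6 (108 against 88.3 to 91.2) and Ndufc2 (141 against 118 to 122), of which Sdhb is called higher in db/db. Control replicate 3 was high for Ndufs6 (272 FPKM against 186 to 196), with no call. db/db replicate 2 was low for Ndufaf1 (31.7 FPKM against 33.8 to 34.2), which is called higher.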

How the results depend on the processing

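No paired analysis was possible because the sample titles of the groups have only 1 number in common (5). Of the 20 called members, 7 kept their call in every alternative that tested them (Sdha, Sdhb, Ndufs1, Ndufaf7, Ndufs5, Ndufs7 and Ndufaf6). The number of members that rose was 5 with median-ratio scaling and 18 with equal-sum scaling, and the number that fell was 6 with equal-sum scaling and 5 with length correction without db/db replicate 1, a setting chosen after seeing the data. Equal-sum scaling called 2486 genes higher. It gave medians of 0.041 for all members, 0.60 for complex II, 0.29 for complex III, 0.16 for cytochrome c, 0.0026 for complex IV and -0.0054 for complex V. Length correction gave 0.045 for all members, 0.016 for complex IV and 0.039 for complex V, and without db/db replicate 1 it gave 0.047, 0.056 and 0.043. Ndufa4 changed sign to 0.28 with length correction and 0.31 without db/db replicate 1. Leaving out 1 library at a time gave 4 to 12 members higher and 5 to 9 lower, 1247 to 1461 genes higher and 878 to 1081 lower over all genes, and medians from -0.17 to -0.05 for all members, -0.18 to -0.04 for complex I, 0.38 to 0.48 for complex II, 0.07 to 0.20 for complex III, -0.06 to 0.07 for cytochrome c, -0.20 to -0.09 for complex IV and -0.21 to -0.07 for complex V. The isoform shares could hardly pass their exact permutation test at this number of libraries, so their calls say nothing about stability. Where the value moved with scaling or with length correction, the cause was not tested. FPKM without read totals gives no interval for low values such as those of Cox7a1.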
